A study of Mus musculus with 6 samples.

Results

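The 10 genes described here encode Crem and other transcription regulators of male germ cells, measured in whole testes of Dazap1 mutant and wild-type mice. They were Crem, Fhl5, Creb3l4, Mybl1, Ovol1, Rfx2, Sox30, Tbpl1, Gtf2a1l and Taf7l, and all 10 were among the 15207 genes tested. They were chosen by name for their described roles in the testis, with earlier results of these data known. On another array type, the study reported lower expression of Crem, Creb3l4 and Ovol1 in the mutant testes and checked it by RT-PCR. Counts over the regulators therefore do not come from an unselected set. A gene was represented by every probe set whose annotation carried its symbol alone, 132 probe sets in all, none of them shared with another symbol.

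Total RNA was hybridised to 6 Affymetrix Mouse Exon 1.0 ST arrays, whose short probe sets are spread over the exons of a gene. The Fn adult group (n = 3) held adult mice homozygous for the Fn allele of Dazap1, a floxed allele that keeps its neo cassette and, by the study, yields an altered protein with extra sequence between its RNA-binding domains. The DAZAP1 protein binds RNA and is plentiful in the testis, and the study describes an arrest of germ cells before the meiotic divisions in these mutants, with no haploid spermatids. The Wt P21 group (n = 3) held wild-type mice at postnatal day 21, chosen by the study because the germ cells of young testes have reached similar stages. Mice of both groups had a mixed C57BL/6 and 129 background. The labels call the arrays of a group biological replicates. Genotype and age differ together between the groups and cannot be told apart. No probe set carried the symbol Dazap1 alone, and its level is not analysed here.

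CREM is a basic leucine zipper factor that binds cAMP response elements. In the testis its activator isoforms, made by a change in promoter, splicing and polyadenylation, turn on genes of the haploid spermatid, and the LIM-only protein ACT, encoded by Fhl5, serves as its coactivator. Other regulators act earlier, in pachytene spermatocytes, among them the MYB factor of Mybl1. A further group replaces or extends the general transcription machinery in germ cells.

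No regulator passed the test at the gene level. The gene level is the median, on each array, of all log2 values of that gene, and differences are Fn adult minus Wt P21. By limma with Benjamini-Hochberg adjustment over all genes, 0 of the 10 passed an adjusted p of 0.05, where 8.98% of all genes passed in either direction and 0.914% passed as lower in Fn adult. At an unadjusted p under 0.05 there were 3, Crem, Rfx2 and Gtf2a1l, all lower in Fn adult, against 26.6% of all genes in either direction and 6.02% lower. The arrays of the groups did not overlap for 2, Crem and Gtf2a1l, both lower in Fn adult, against 34.5% of all genes in either direction and 8.96% lower. The difference was negative for 7 genes and positive for 3, with a median of -0.33, beside 0.07 over all genes. Of the 3 positive differences, those of Sox30 and Taf7l turned negative when the array medians were subtracted, and that of Sox30 also under quantile normalization.

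Whole-testis RNA does not separate fewer cells of a type from less RNA per cell, so a lower level below can be either. Some marker lists of other cell types differed between the groups. Of 11 pachytene spermatocyte markers 2 fell, Piwil1 and Ybx2. In all 9 were lower in Fn adult, 5 of them at an unadjusted limma p under 0.05, and the median difference was -0.44. Sycp3 (0.16) and Hormad1 (0.17) were higher in Fn adult. The summed level of the list was 15.05 to 15.24 on the log2 scale in Fn adult arrays and 15.37 to 15.77 in Wt P21 arrays. Of 11 spermatid markers 0 passed in limma and 3 had an unadjusted p under 0.05, Prm1, Spaca1 and Smcp, all higher in Fn adult. The median difference of the list was 0.38, and its summed level was 12.01 to 12.49 in Fn adult and 11.16 to 12.42 in Wt P21 arrays. All 7 Leydig cell markers rose, at 15.04 to 15.21 in Fn adult and 13.06 to 13.60 in Wt P21, and 7 of 10 macrophage markers rose. Of 10 Sertoli cell markers 3 rose, among them Trf 2.12-fold, and 1 fell, Amh. Of 9 spermatogonia markers 2 rose, Kit 2.11-fold and Etv5, but 6 were lower in Fn adult and the median difference was -0.12. Sohlh1 (-0.35) and Uchl1 (-0.32) were lower at an unadjusted limma p under 0.05. Of 8 peritubular myoid and endothelial markers 0 passed in limma, with 3 at an unadjusted p under 0.05, all higher in Fn adult. The part of these shifts in the results below was not tested.

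One array stood high for most regulators. Wt P21 replicate 3 was the highest of its group for 8 of the 10, against 52.9% of all genes. Its excess over the mean of replicates 1 and 2 had a median of 0.68 over the regulators, beside 0.14 over all genes. The same excess had a median of 1.33 over the spermatid markers and 0.33 over the pachytene markers, and their part in the regulators' values was not tested. The SD was larger in Wt P21 for 9 of 10 regulators, and its median was 0.19 in Fn adult and 0.40 in Wt P21 over the regulators, beside 0.11 in Fn adult and 0.21 in Wt P21 over all genes.

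**Figure D1:**
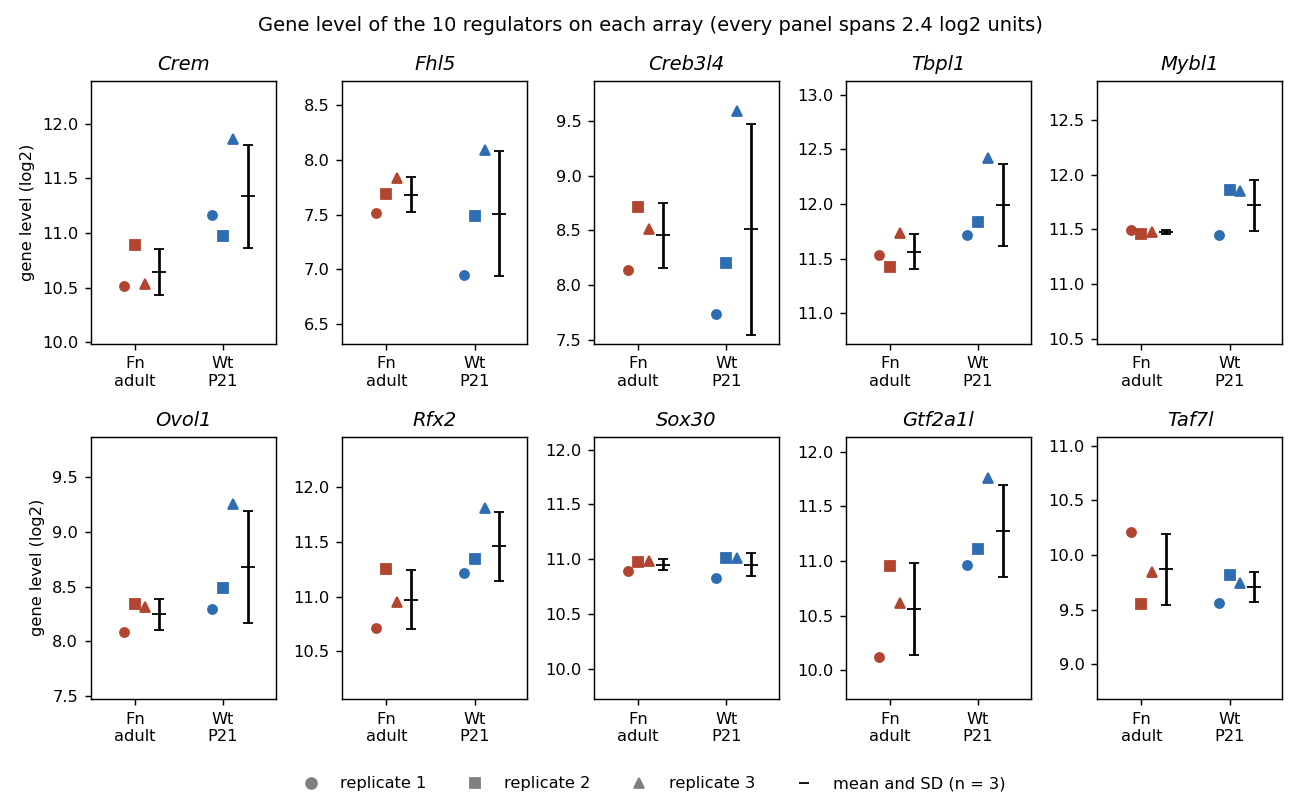
Gene level (log2) of each regulator on the 3 Fn adult arrays (left, red) and the 3 Wt P21 arrays (right, blue), with symbols for the replicate and the mean and SD beside each group. The groups are apart for Crem and Gtf2a1l, and Wt P21 replicate 3 is the highest of its group in 8 of the 10 panels.

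Crem, on chromosome 18, had the clearest lower level together with Gtf2a1l. Its level was 10.52, 10.89 and 10.53 in Fn adult testes, against 11.17, 10.97 and 11.86 in Wt P21 testes. Every Fn adult array lay below every Wt P21 array, although Fn adult replicate 2 and Wt P21 replicate 2 lay close together. The mean was 10.65 ± 0.21 in Fn adult and 11.33 ± 0.47 in Wt P21 (SD, n = 3 each), a difference of -0.69 (SE 0.23, 95% interval -1.22 to -0.16), or 1.61-fold lower. The limma adjusted p was 0.101. The call turned on how the arrays were scaled, since Crem passed under quantile normalization (-0.80, adjusted p 0.0431) and with array medians subtracted (-0.86, adjusted p 0.0303). Without Wt P21 replicate 3 the difference was -0.42, with an adjusted p of 0.0853. Taking the mean of probe sets in place of their median gave -0.45 (adjusted p 0.148).

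Most of the Crem probe sets had a lower mean. Of the 11 Crem probe sets 10 were lower in Fn adult, and 6 had no overlap between the groups and were lower in Fn adult, where 7.67% of all probe sets were so. By limma 0 of the 11 passed, and 0 of the 132 probe sets of all regulators, against 4.18% of all probe sets. At an unadjusted p under 0.05 there were 6 in Crem and 30 of 132 over all regulators, against 21.8% of all probe sets. The probe set with the largest difference, 4866495, had 11.49, 11.91 and 11.51 in Fn adult, against 12.27, 12.38 and 12.74 in Wt P21. Its difference of -0.83 had a limma adjusted p of 0.0539. Wt P21 replicate 3 gave the highest of the 6 values at all 11 probe sets.

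**Figure D2:**
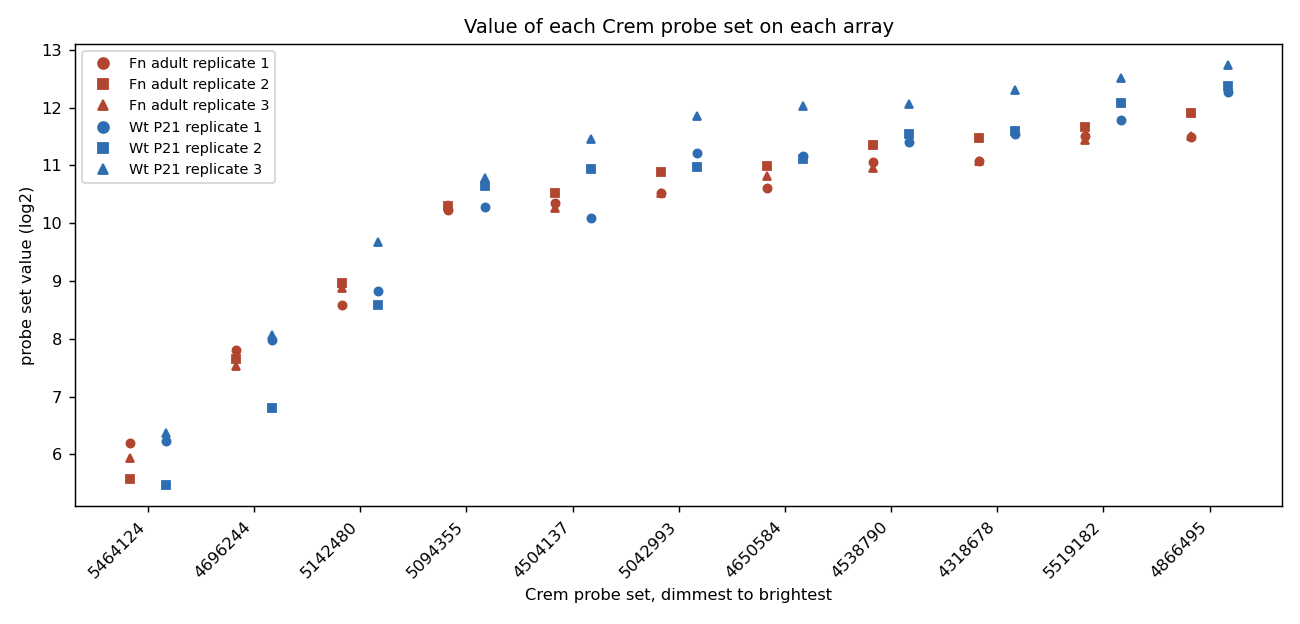
Log2 value of each of the 11 Crem probe sets (horizontal axis, probe set ID, dimmest to brightest) on the Fn adult arrays (left of each pair, red) and the Wt P21 arrays (right, blue). At 6 probe sets every Fn adult value lies below every Wt P21 value.

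The splicing index, the value of a probe set minus the gene level on the same array, asks whether one stretch of Crem moved apart from the rest. By limma 0 of the 11 Crem probe sets passed, and 0 of those of the other regulators, where 16 of 207513 probe sets passed (0.00771%). At an unadjusted p under 0.05 there were 2 in Crem and 6 of 132 over all regulators, against 9.56% of all probe sets. The groups did not overlap for 1 in Crem and 10 of 132 over all regulators, against 14.7%. The probe sets were not paired with exons here, so a value cannot be placed on a particular exon or isoform.

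The separated Crem probe set was 5142480. Its splicing index was -1.93, -1.93 and -1.65 in Fn adult, against -2.35, -2.39 and -2.19 in Wt P21. The difference was 0.47 (95% interval 0.19 to 0.76), with an adjusted p of 0.318. With the mean of probe sets as the gene level it was 0.23, with an unadjusted p of 0.141. In log2 value the same probe set was 8.59, 8.96 and 8.88 in Fn adult, against 8.82, 8.59 and 9.67 in Wt P21, where the groups overlapped. The second at an unadjusted p under 0.05, 4696244, differed by 0.73 (95% interval 0.06 to 1.39, adjusted p 0.486), but its groups overlapped. Its splicing index was -2.71, -3.24 and -3.00 in Fn adult, against -3.18, -4.16 and -3.79 in Wt P21. In log2 value it was 7.80, 7.65 and 7.53 in Fn adult, against 7.99, 6.81 and 8.07 in Wt P21. Another probe set, 5464124, lay under the lower quartile of every array. The splicing index differences of the 11 ran between -0.14 and 0.73, and these 3, the dimmest of the Crem probe sets, had the largest positive ones, although 5142480 lay under the lower quartile on 0 arrays.

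The remaining probe sets did not separate. Probe set 5464124 had a mean splicing index of -4.74 in Fn adult and -5.31 in Wt P21, a difference of 0.57. Probe set 5094355 had -0.37 in Fn adult and -0.76 in Wt P21, and 4504137 had -0.27 in Fn adult and -0.51 in Wt P21, differences of 0.39 and 0.24. Both of these had intervals that crossed 0. The brighter probe sets differed by less, with 0.48 in Fn adult and 0.34 in Wt P21 at 4538790, and 0.57 in Fn adult and 0.48 in Wt P21 at 4318678. Likewise 5519182 had 0.89 in Fn adult and 0.80 in Wt P21, and 4650584 had 0.16 in Fn adult and 0.10 in Wt P21. Probe set 5042993 was the median of the gene on 5 of the 6 arrays, and 4866495 had 0.99 in Fn adult and 1.13 in Wt P21. These were the 2 probe sets of the 11 with a negative difference. With the mean of probe sets as the gene level 6 of the 11 were negative, and 4866495 was at -0.38 with an unadjusted p of 0.0231 and an adjusted p of 0.407.

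**Figure D3:**
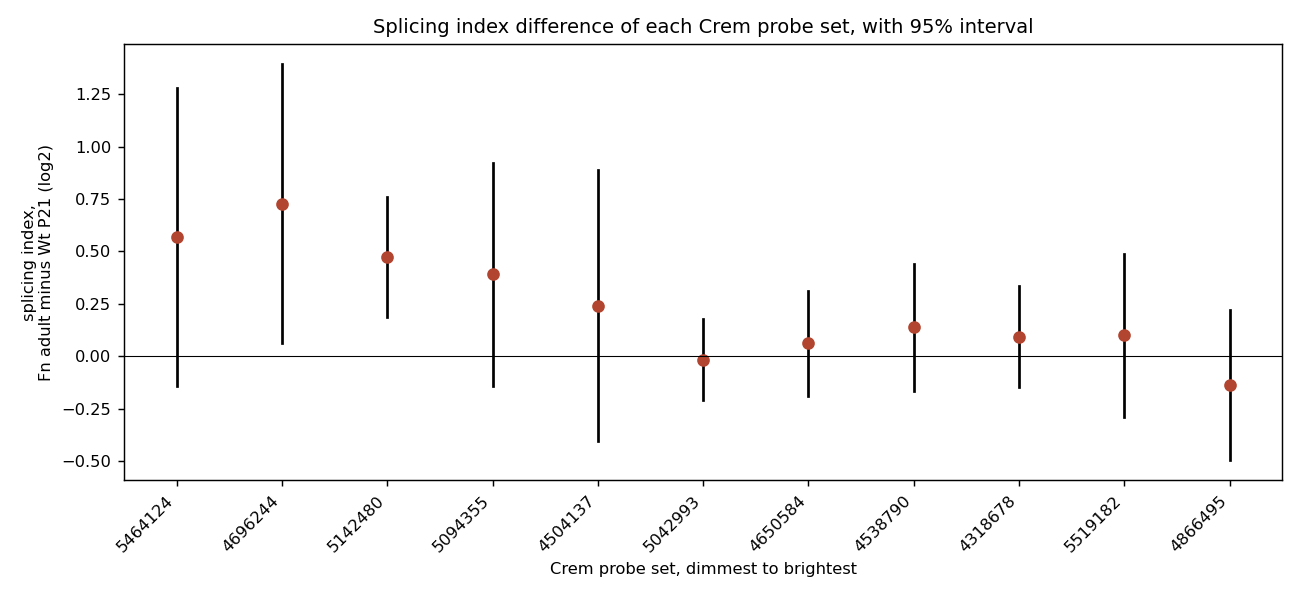
Difference in splicing index (Fn adult minus Wt P21, log2) of each Crem probe set, points with 95% intervals, ordered from the dimmest to the brightest probe set. The 3 dimmest probe sets have the largest positive differences, and the interval of 5142480 is 0.19 to 0.76.

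The partners of CREM showed no matching separation. Fhl5, the coactivator ACT, had 7.52, 7.69 and 7.84 in Fn adult testes, against 6.95, 7.48 and 8.09 in Wt P21 testes. The Wt P21 arrays lay on both sides of the Fn adult arrays, and the difference was 0.17 (95% interval -0.42 to 0.77, limma adjusted p 0.718). Fhl5 was dim, since the lower quartile of an array was 7.36 to 7.56. Of its 6 probe sets 5 were higher in Fn adult. Without Wt P21 replicate 3 the difference was 0.46, with an adjusted p of 0.0997. Creb3l4, a membrane-bound CREB family factor found in haploid germ cells, had 8.13, 8.71 and 8.51 in Fn adult, against 7.74, 8.20 and 9.59 in Wt P21. Its difference of -0.06 (95% interval -1.0 to 0.89, adjusted p 0.945) lay within the spread of the Wt P21 arrays. Without Wt P21 replicate 3 the difference was 0.48, the opposite direction, with an adjusted p of 0.122.

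The cAMP route and the described CREM targets, listed by function, were read in the same way. Of 23 measured genes of the CREB family and the cAMP route 2 rose and 0 fell, with a median difference of 0.09. Over all 15207 genes 1227 rose and 139 fell, with a median difference of 0.07. Prkacb, a catalytic subunit of protein kinase A, rose by 0.68 (limma adjusted p 0.0270), and Prkar2a, a regulatory subunit, rose by 0.58 (adjusted p 0.0407). Adcy10, the soluble adenylyl cyclase of germ cells, had 8.30, 8.79 and 8.51 in Fn adult, against 9.33, 9.22 and 10.53 in Wt P21, with a difference of -1.16 and an adjusted p of 0.0604. Its groups did not overlap.

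Of 9 described CREM targets 1 rose and 0 fell, with a median difference of 0.18, beside 0.07 over all genes. Tnp1, Tnp2, Prm1, Prm2, Odf1 and Smcp also stand in the spermatid marker list, and Ldhc in the pachytene marker list. The gene that rose was Ace, which carries a germ-cell promoter beside its somatic one, at 2.05-fold (limma adjusted p 0.00416). Its level was 10.82 to 11.15 in Fn adult arrays, against 9.82 to 10.05 in Wt P21 arrays. That level, a median over 30 probe sets, does not tell transcripts of the germ-cell promoter from those of the somatic promoter. The other described targets went both ways without passing. Prm1, a protamine of the sperm nucleus, differed by 1.09 (adjusted p 0.0917), Smcp, a mitochondrial capsule protein of sperm, by 1.0 (adjusted p 0.165), and Acr, the acrosomal protease acrosin, by -0.89 (adjusted p 0.0686). The transition protein gene Tnp1 had 6.28, 6.11 and 6.65 in Fn adult, against 6.11, 5.91 and 6.49 in Wt P21, dimmer than the lower quartile on every array.

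Among the regulators of spermatocytes, Rfx2 and Ovol1 had the most negative differences as deposited. RFX2 is a winged-helix factor that drives genes of cilia and flagella. Rfx2 had 10.72, 11.25 and 10.95 in Fn adult testes, against 11.22, 11.35 and 11.81 in Wt P21 testes. The groups overlapped slightly, Fn adult replicate 2 lying above Wt P21 replicate 1. The difference was -0.49 (95% interval -0.94 to -0.03), with an unadjusted p of 0.0377 and a limma adjusted p of 0.159. Leaving out Wt P21 replicate 3 gave -0.31, with an unadjusted p of 0.0980. All 20 of its probe sets were lower in Fn adult. Of these 9 had no overlap, where 7.67% of all probe sets were lower without overlap. Wt P21 replicate 3 was the highest array at 19 of the 20, and the probe sets read the same gene on the same arrays.

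Mybl1 encodes A-MYB, which switches on meiotic and piRNA precursor genes at pachytene. Its level was 11.49, 11.46 and 11.48 in Fn adult, against 11.45, 11.86 and 11.85 in Wt P21. The Fn adult arrays were nearly equal, and Wt P21 replicate 1 lay with them. The difference was -0.24 (95% interval -0.57 to 0.09, adjusted p 0.318). Of 6 measured targets described for MYBL1 1 fell, Piwil1, a piRNA-binding protein, 1.41-fold (limma adjusted p 0.0462), and the median difference of the list was -0.27. Piwil1 also stands in the pachytene marker list.

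Ovol1 encodes a zinc finger repressor needed for progress through pachytene. It had 8.09, 8.34 and 8.32 in Fn adult, against 8.29, 8.48 and 9.26 in Wt P21, so that Wt P21 replicate 3 alone stood apart. The difference was -0.43 (95% interval -0.97 to 0.11, adjusted p 0.281), and all 10 probe sets were lower in Fn adult. Leaving out Wt P21 replicate 3 gave -0.14. Sox30, a SOX factor needed to form spermatids, had 10.89, 10.97 and 10.99 in Fn adult, against 10.83, 11.01 and 11.01 in Wt P21. Its difference was 0.00 (95% interval -0.28 to 0.28).

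Of 17 other germ-cell transcription regulators 0 passed in limma and 3 had an unadjusted p under 0.05, 2 of them higher in Fn adult, with a median difference of -0.08. Those with the largest differences were Spz1 (0.70, adjusted p 0.387) and Zfx (0.59, adjusted p 0.0969). Of 21 family relatives of the regulators 1 rose, Creb3l1, a membrane-bound relative of Creb3l4 known in secretory cells, 2.18-fold (adjusted p 0.00263). Without Wt P21 replicate 3 the count of called genes over all these lists was 14, against 5 with every array. Over all 15207 genes the same omission gave 2821 called genes, against 1366 with every array.

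**Figure D4:**
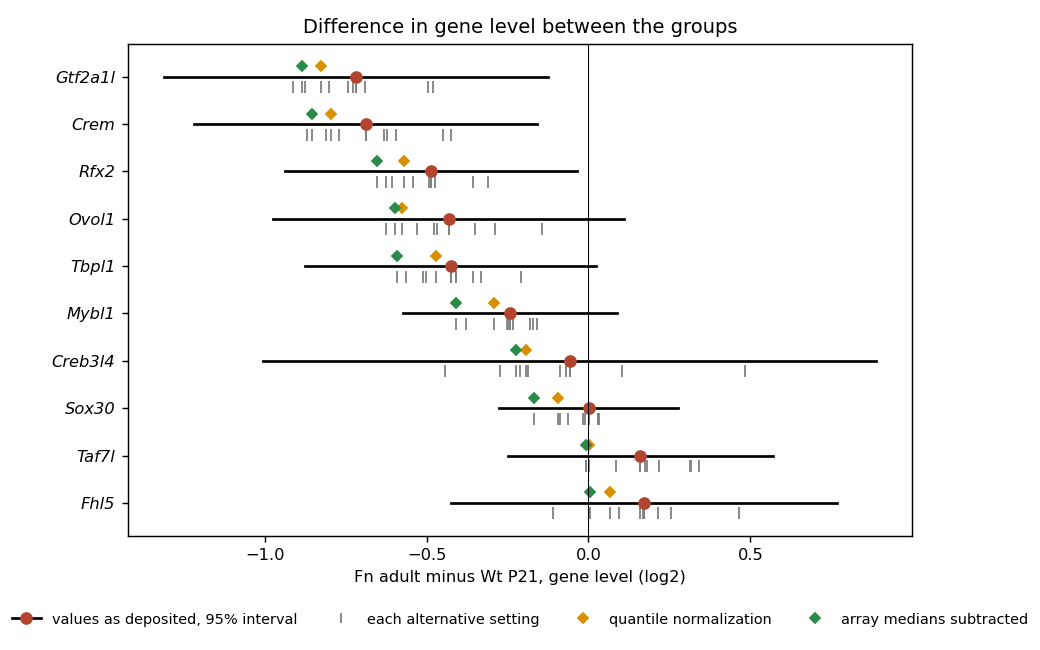
Difference in gene level (Fn adult minus Wt P21, log2) of the 10 regulators, as red points with 95% intervals, grey ticks for each alternative setting, and diamonds for quantile normalization (orange) and subtracted array medians (green). The intervals of Gtf2a1l, Crem and Rfx2 lie below 0, and none of the 10 passed the adjusted p of 0.05 as deposited.

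The testis forms of the general factors differed among themselves. Gtf2a1l encodes ALF, the germ-cell form of the large TFIIA subunit. It had 10.12, 10.95 and 10.61 in Fn adult testes, against 10.97, 11.11 and 11.76 in Wt P21 testes. Every Fn adult array lay below every Wt P21 array, with Fn adult replicate 2 and Wt P21 replicate 1 nearly level. The difference was -0.72 (95% interval -1.31 to -0.12), or 1.64-fold lower, with a limma adjusted p of 0.122. All 11 probe sets were lower in Fn adult. Of these 5 had no overlap, where 7.67% of all probe sets were lower without overlap. Without Wt P21 replicate 3 the difference was -0.48, with an adjusted p of 0.152.

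Gtf2a1, which encodes the broadly used large subunit, had 11.17, 11.14 and 11.04 in Fn adult, against 11.11, 11.14 and 10.98 in Wt P21, a difference of 0.04 (limma adjusted p 0.870). Gtf2a1l minus Gtf2a1 on the same array was -1.06, -0.19 and -0.42 in Fn adult, against -0.15, -0.03 and 0.77 in Wt P21, without overlap. A difference taken within an array does not depend on the scaling of arrays by their medians. It can still follow the mix of cell types, whose part was not tested. The share of gene pairs without overlap was not computed, and Taf7l minus Taf7 overlapped between the groups.

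Tbpl1 encodes TRF2, a relative of the TATA-binding protein needed for spermatid development. It had 11.54, 11.43 and 11.74 in Fn adult, against 11.71, 11.84 and 12.42 in Wt P21, with 1 overlapping pair. The difference was -0.43 (95% interval -0.88 to 0.02, adjusted p 0.209), and -0.21 without Wt P21 replicate 3. Tbp itself differed by -0.35 (adjusted p 0.267), and Tbpl1 minus Tbp overlapped between the groups with a difference of -0.08. Taf7l, an X-linked TFIID subunit that stands in for TAF7 in germ cells, had 10.21, 9.56 and 9.84 in Fn adult, against 9.56, 9.82 and 9.75 in Wt P21. The groups overlapped, and the difference was 0.16 (95% interval -0.25 to 0.57, adjusted p 0.611).

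Taf7l was the regulator whose probe sets all pointed up. All 15 were higher in Fn adult, by 0.05 to 0.50 with a median of 0.40, and 5 had no overlap, where 21.5% of all probe sets were higher without overlap, although 0 passed in limma and 2 had an unadjusted p under 0.05. The gene level, a median taken on each array, differed by less than that median. Its difference was -0.0064 with array medians subtracted and 0.00045 with quantile normalization, so the upward direction holds for the values as deposited. Wt P21 replicate 3 was the highest array at 0 of the 15 probe sets, unlike 11 of 11 for Crem and 11 of 11 for Gtf2a1l. Taf7, the broadly expressed counterpart, differed by 0.15 (adjusted p 0.667). Of 13 listed relatives among the TFIID and TFIIA subunits, which include the oocyte paralogue Tbpl2, 0 passed in limma and 1 had an unadjusted p under 0.05, with a median difference of 0.03, and the largest was that of Taf13, 0.59 (adjusted p 0.165).

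**Figure D5:**
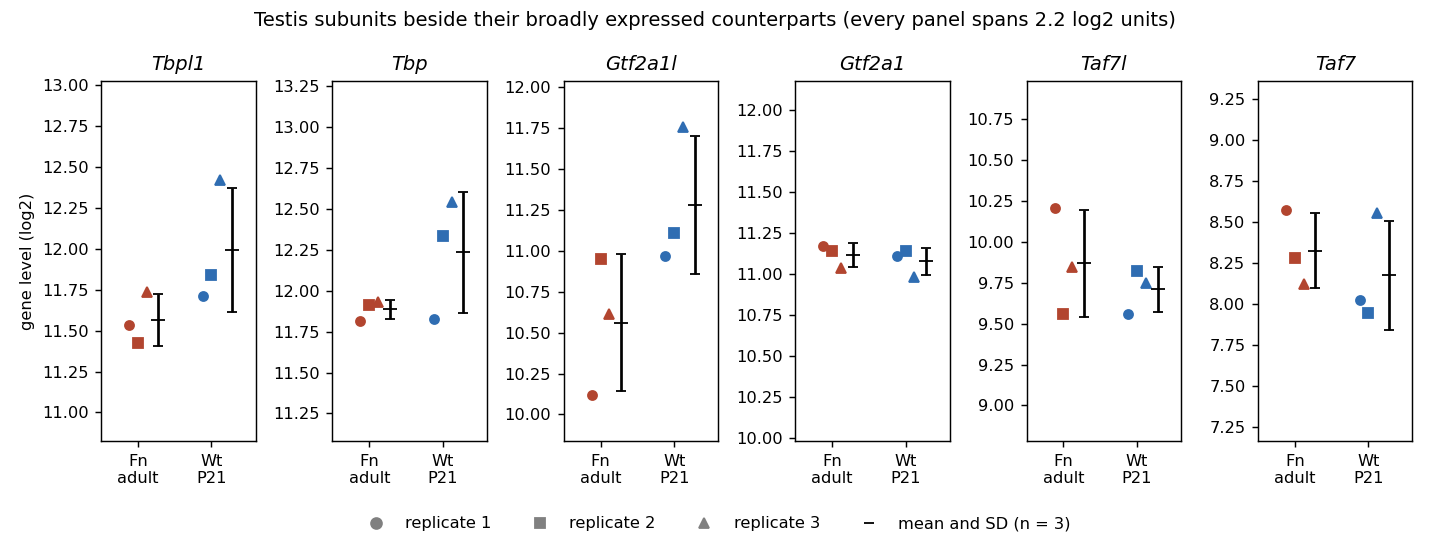
Gene level (log2) of Tbpl1, Gtf2a1l and Taf7l, each beside the broadly expressed gene of the same complex, on the Fn adult (left, red) and Wt P21 (right, blue) arrays with the mean and SD. Gtf2a1l is lower in Fn adult without overlap while the values of Gtf2a1 lie between 10.98 and 11.17.

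Crem was also set against cell type markers on the same array. Crem minus the median of the 11 pachytene markers was -0.70, -0.70 and -1.06 in Fn adult, against -0.48, -0.69 and 0.01 in Wt P21. The groups did not overlap, but Fn adult replicate 1 and Wt P21 replicate 2 were nearly equal. Relative to the median of the 11 spermatid markers, Crem was 2.24, 2.60 and 1.80 in Fn adult, against 3.50, 3.52 and 3.28 in Wt P21, a difference of -1.22 without overlap. The separation was not particular to Crem, since relative to the spermatid markers 6 of the 10 regulators did not overlap, the others being Tbpl1 (-0.95), Mybl1 (-0.77), Ovol1, Rfx2 and Gtf2a1l. That spermatid median was itself 8.28, 8.29 and 8.73 in Fn adult, against 7.67, 7.45 and 8.58 in Wt P21. On Wt P21 replicates 1 and 2 it was dim, since the lower quartiles of those arrays were 7.42 and 7.36. The higher mean of that spermatid median in Fn adult lowers every regulator on this measure, with Sox30 at -0.53 and Taf7l at -0.37. The share of all genes without overlap relative to markers was not computed, so the counts relative to markers have no background to be read against. Relative to the pachytene markers 2 of the 10 did not overlap, Crem (-0.43) and Sox30 (0.26), and Mybl1 differed by 0.01 and Tbpl1 by -0.17, both with overlap. That pachytene median was 11.21 to 11.59 in Fn adult and 11.64 to 11.86 in Wt P21, which raises every regulator on this measure. Relative to the 9 spermatogonia markers 0 of the 10 were without overlap, and Crem was 1.15, 1.90 and 1.26 in Fn adult, against 2.06, 1.51 and 2.72 in Wt P21.

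Across the 6 arrays the regulators fell into a graded order of likeness to Crem, given as a description since the arrays share the group difference and the high Wt P21 replicate 3. Pearson's r with Crem was 0.94 for Rfx2, 0.93 for Gtf2a1l, 0.90 for Ovol1 and 0.83 for Tbpl1. It was 0.62 for Mybl1, 0.61 for Creb3l4, 0.25 for Fhl5, 0.22 for Sox30 and -0.47 for Taf7l. Among all genes the 5 most like Crem were Ttll5, Ddx25, Ccdc148, Fbn2 and Ccdc39, with r of 0.997 to 0.999 over the 6 arrays.

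Promoter sequence was read for the regulators from RefSeq (GRCm38.p6), as the 250 bases before each annotated start. There were 10 windows for 7 regulators. Crem, Mybl1 and Ovol1 were not in the promoter table used here. Both strands were searched for the full cAMP response element TGACGTCA, its half-site TGACG, the MYB motif TAACNG, the RFX half-site GTTGCC and the TATA motif TATAAA, where a half-site can lie within a full element. The full element was in 0 of the 10 windows, where 1.55% of all 32851 windows held it. The half-site TGACG was in 3 windows (17.8% of all windows), of Creb3l4 and Rfx2, TAACNG in 4 (19.8%), of Fhl5, Creb3l4, Rfx2 and Sox30, GTTGCC in 2 (10.4%), of Rfx2 and Gtf2a1l, and TATAAA in 1 (12.4%), of Taf7l. A match is a description of letters, and a window without one says only that these letters are not there.

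The windows of Rfx2 and Gtf2a1l are shown because these genes were nearest to Crem in their values and share GTTGCC. That of Taf7l is shown because its probe sets pointed the other way in the values as deposited. Capitals mark the matches, read 5′ to 3′ along the gene's strand. In Rfx2 (chr17:56831009-56831258, minus strand) TGACG begins at -224, TAACCG at -121 and GTTGCC at -116 from the start, the last pair sharing 1 base. In Gtf2a1l (chr17:88668410-88668659, plus strand) GTTGCC begins at -188. In Taf7l (chrX:134476491-134476740, minus strand) a pair of TATAAA matches overlap, on opposite strands.
Rfx2: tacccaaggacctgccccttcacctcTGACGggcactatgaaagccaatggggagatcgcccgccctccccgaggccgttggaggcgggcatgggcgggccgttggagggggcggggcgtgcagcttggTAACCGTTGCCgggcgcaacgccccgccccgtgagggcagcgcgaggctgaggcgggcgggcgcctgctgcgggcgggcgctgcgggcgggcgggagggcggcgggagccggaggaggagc
Gtf2a1l: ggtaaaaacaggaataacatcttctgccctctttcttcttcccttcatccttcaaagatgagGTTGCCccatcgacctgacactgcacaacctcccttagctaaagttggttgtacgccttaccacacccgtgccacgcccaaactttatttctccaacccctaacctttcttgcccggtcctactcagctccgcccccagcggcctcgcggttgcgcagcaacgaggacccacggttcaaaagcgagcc
Taf7l: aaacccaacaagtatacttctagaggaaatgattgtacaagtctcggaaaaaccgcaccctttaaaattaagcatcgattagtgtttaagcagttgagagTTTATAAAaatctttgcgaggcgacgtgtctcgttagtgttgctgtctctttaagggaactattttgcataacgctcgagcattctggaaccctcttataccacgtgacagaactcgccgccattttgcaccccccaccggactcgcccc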

How the data were processed

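Trizol-extracted total RNA of whole testes, converted to amplified, biotin-labelled cDNA, was measured on 6 exon arrays, 3 per group. The deposited values, 1 per probe set and array with 229581 rows, were read as log2 intensities from their range, since no source states the scale, and every fold rests on that reading. Genome build mm8 is named in the submitters' processing notes, and the methods of the study name EASANA (GenoSplice). How the authors corrected background and normalized the log2 values is not given in the sources used here. Array medians ran between 8.76 and 9.10, and the small number of arrays limits precision.

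Probe sets with 1 gene symbol (209279) were assigned to genes. Those with several (4446) or none (15856) were left out. Of the symbols, 14190 were current in RefSeq (GRCm38.p6), 2145 synonyms were replaced and 45 had no match. The gene level was the median over a gene's probe sets, for genes with at least 3. Groups came from the labels and were compared with lmFit and eBayes (limma 3.58.1, R 4.3.3, with statmod 1.5.0), two-sided, over all features, at an adjusted p of 0.05. "Rose" and "fell" mean past that threshold. A probe set that equals the gene level on every array has a splicing index of 0 throughout (1062 probe sets). Fits were tested on simulated data. The regulators and all gene lists were chosen with earlier results of these data known. The regulators were all named, with up to 4 genes per list past the threshold, or the largest differences where none passed, the counterparts Tbp, Gtf2a1 and Taf7, and the 5 genes most correlated with Crem. Adcy10, Prm1, Smcp, Acr and Tnp1 were chosen after their values were seen. Alternatives were quantile normalization, subtracted array medians, each array left out, a replicate block, eBayes with trend and robust, the mean of probe sets, filters on low values, diffSplice, and no minimum of probe sets.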

Additional observations from a re-analysis of the deposited data

How the results depend on the processing

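Crem passed the limma threshold in 2 of 14 alternative settings, quantile normalization (-0.80) and subtracted array medians (-0.86), so that 1 regulator was called in each, against 0 as deposited. Its difference ran between -0.87 and -0.42 over the settings, with adjusted p between 0.0303 and 0.309. The scaling moved the median difference of all genes to -0.05 with quantile normalization and -0.10 with subtracted medians, against 0.07 as deposited, and the genes called were 826 higher and 452 lower, or 702 higher and 629 lower, against 1227 and 139. Differences changed sign for Sox30 (-0.095 with quantile normalization, -0.17 with subtracted medians, -0.088 with the mean of probe sets, and -0.062 to 0.032 with an array left out), Taf7l (-0.0064 with subtracted medians, and -0.0091 to 0.32 with an array left out), Creb3l4 (-0.44 to 0.48 with an array left out) and Fhl5 (-0.11 to 0.46 with an array left out). The cause was not tested.

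Over all genes 1366 were called, 2228 with the mean of probe sets and 325 to 2821 with an array left out. Genes called in the lists numbered 5, and 2 to 14 with an array left out. Splicing index calls numbered 16 over all probe sets, 28 with quantile normalization, 201 with trend and robust, 258 with the mean of probe sets, 2002 with diffSplice, 139 without probe sets constant at 0 (chosen after seeing the data), and 1 to 2 with an array left out. Crem and the other regulators had 0 in each of these. Regulator probe sets called numbered 0, 1 with quantile normalization, 3 with trend and robust, and 0 to 4 with an array left out, the 4 without Wt P21 replicate 3, in settings chosen after seeing the data.

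Same-numbered arrays deviated from their group means with r of 0.24, -0.11 and -0.02, and differently numbered ones with r of -0.20 to 0.22. So few arrays cannot settle whether the numbers pair the samples. With a replicate block 0 regulators, 1016 genes and 0 splicing indices were called, and the Crem difference of -0.69 had an adjusted p of 0.124.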
